A study of Mus musculus with 9 samples.

Results

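Granulocyte-monocyte progenitors (GMP) lacking nicastrin were compared with wild-type GMP, using 6 of the series' 9 expression arrays: NcstnKO GMP 1, 2 and 3 and WT GMP 1, 2 and 3, taken by their titles. Each array was hybridized with RNA from sorted bone marrow cells that were lineage negative, cKit+, Sca1-, CD34+ and FcgammaRII/III+, the surface definition of GMP. The other 3 arrays hold wild-type LSK cells (lineage negative, cKit+, Sca1+) and entered only the estimate of the spread. The WT mice were Ncstn flox/flox and the knockouts Ncstn flox/flox Mx1-cre+, so both carried floxed alleles and only the knockouts carried the Cre transgene. All mice were given polyIC, a double-stranded RNA mimic, in 3 injections of 20 mcg per g body weight on alternate days starting at 14 days of age. The mice, littermates by the labels, were killed 4 weeks after injection, at 6 weeks of age. Mx1-Cre is driven by an interferon-inducible promoter and is not restricted to GMP, so the deletion need not have been confined to the sorted cells. An effect of Mx1-Cre itself and that of losing nicastrin cannot be told apart.

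Nicastrin is the large glycoprotein subunit of γ-secretase, an intramembrane protease that also needs a presenilin, APH1 and PEN2. After ADAM10 or ADAM17 has shed the outer part of a type I membrane protein, γ-secretase cuts the remaining stub; for Notch receptors this frees the intracellular domain that activates transcription with RBPJ. GMP are the committed marrow precursors of neutrophils and monocytes, while red cells and platelets arise from a sister branch, the megakaryocyte-erythroid progenitors.

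Signals are given as log2 of the deposited intensity, and a difference of 1 is therefore 2-fold. Median intensity was 65.4 to 68.6 over the 6 arrays, and correlations across genes were 0.99 to 0.996 within a group and 0.986 to 0.991 between the groups. Labelled sex and sex-linked transcripts differed on 4 of the 6 arrays. All WT arrays are labelled female, but WT 2 and 3 carried male transcripts, and KO 2 and 3 are labelled male but carried female ones. The female-specific Xist read 12.7, 5.80 and 5.67 on WT 1, 2 and 3 and 12.3 to 12.6 on the knockout arrays. Control probe sets also stood apart by group. The 3′ over 5′ signal of Actb (log2), a measure of RNA integrity and amplification length, was 0.50 to 0.71 on WT arrays and 0.81 to 1.06 on knockout arrays. The bioB and bioC hybridization spikes were 0.317 higher in the knockouts. Each of these had an exact 2-sided permutation p of 0.1, the smallest that 3 against 3 arrays allows. As a term of the fit, each left 0 genes at a limma adjusted p under 0.05. Its part in the results cannot be told apart from that of genotype. The labels name a mouse as the source of each array and tie no array to a litter or day, so the p-values below measure only the spread between these samples.

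Genes that define GMP gave no call. Of 19 measured genes that define GMP, 0 passed the test in either direction, beside 5.7% of all 18193 genes. Their median log2 difference (knockout minus WT) was −0.06, beside 0.06 over all genes. Mpo, the myeloperoxidase of primary granules, read 13.96, 13.97 and 13.91 on the WT arrays and 13.83, 13.88 and 13.87 on the knockout arrays. The neutrophil proteases Elane and Prtn3 differed by −0.06 and 0.02. Cd34, one of the sorted surface antigens, read 12.04, 12.23 and 12.21 against 11.99, 11.69 and 11.57, a difference of −0.41 with a limma adjusted p of 0.0796. Kit differed by −0.26 (adjusted p = 0.21) and Fcgr3, which encodes the FcγRIII of the sort, by 0.18 (adjusted p = 0.664). The master myeloid factor Cebpa stayed within 12.68 to 12.87 on all 6 arrays. Csf1r, the M-CSF receptor, overlapped between the groups, at 11.65 to 12.29 in WT and 10.99 to 12.01 in the knockouts.

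Nicastrin transcript was lower on every knockout array, and the other measured parts of the proteolytic machinery did not pass the test. Ncstn read 9.25, 9.31 and 9.26 on WT arrays and 7.79, 7.78 and 7.76 on knockout arrays, with no overlap and almost no spread within a group. The difference was −1.50 (SE 0.08, 2.82-fold, adjusted p = 0.000287). A second, dimmer Ncstn probe set read 6.13 to 6.81 in WT and 6.29 to 6.68 in the knockouts, and the mean of the Ncstn probe sets differed by −0.68 (adjusted p = 0.0249). Whether either probe set covers the deleted exons is not given in the sources used here. The APH1 subunit genes Aph1a and Aph1b differed by −0.06 and 0.18, Psenen, which encodes PEN2, by −0.01, and the presenilin Psen2 by 0.08. Of the sheddases, Adam10 was 12.23, 12.10 and 12.15 in WT and 11.95, 12.10 and 12.04 in the knockouts. Adam17 and Bace1, the β-secretase, differed by −0.20 and −0.24, neither past the test.

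Among Notch pathway transcripts, Pofut1, Spen, Trib2 and Runx3 fell. Of 23 measured receptors, ligands and modifiers 0 rose and 2 fell, and of 19 Notch target genes 0 rose and 2 fell, with medians of 0.00 and −0.06. For background, 5.7% of all 18193 genes were called in either direction (a Benjamini-Hochberg adjusted p under 0.05), 2.44% higher and 3.26% lower in the knockout. Notch1 read 10.41, 10.80 and 10.74 in WT and 10.94, 10.70 and 10.001 in the knockouts, and these ranges overlap. Notch2 differed by −0.32 (adjusted p = 0.176), and the DNA-binding partner Rbpj by −0.21 (adjusted p = 0.402). The canonical targets Hes1, Hes5, Nrarp and Hey1 differed by 0.03, 0.23, −0.31 and −0.26, none past the test. Both pathway members that fell act on the receptors or with RBPJ. Pofut1 is the fucosyltransferase that Notch receptors need for ligand binding. It read 11.05, 11.06 and 11.11 in WT and 10.39, 10.64 and 10.60 in the knockouts (−0.53, SE 0.09, adjusted p = 0.0232). Its other probe sets differed by −0.01 and −0.34 and did not pass. Spen, a corepressor that binds RBPJ, fell from 8.94, 8.98 and 8.94 to 8.33, 8.27 and 8.33. Its difference was −0.65 (SE 0.14, adjusted p = 0.0392), and the call was lost in each of the 6 fits that left out 1 array.

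Trib2, a pseudokinase that promotes degradation of C/EBPα and is a Notch target in T cell leukemia, had the larger of the falls among targets. It read 9.17, 8.64 and 9.23 in WT and 8.05, 7.17 and 6.75 in the knockouts (−1.69, SE 0.32, adjusted p = 0.0296). Its other 2 probe sets did not pass. The transcription factor Runx3 fell by 0.51 (SE 0.10, adjusted p = 0.0325), from 10.51, 10.58 and 10.56 to 10.12, 10.05 and 9.95. A second, dimmer Runx3 probe set differed by 0.21 and did not pass. Of 29 known γ-secretase substrates, Il1r2 rose and Aplp2 fell, a share of 6.9% that is near the 5.7% called among all genes. Il1r2, the decoy receptor that captures interleukin-1, read 5.32, 5.19 and 5.30 in WT and 7.01, 7.07 and 8.59 in the knockouts. Aplp2, a relative of the amyloid precursor protein, fell by 0.72 (SE 0.15, adjusted p = 0.0383), with 3 of its 5 probe sets lower when each was tested alone. App itself differed by −0.18 (adjusted p = 0.608).

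Across the array, 1037 genes passed the test, 443 higher and 594 lower in the knockout. Their median log2 difference was 0.63 for the rises and −0.61 for the falls, and 158 differed by at least 2-fold, 55 upwards and 103 downwards. Centring each array on its 75th percentile gave 588 higher and 515 lower. The 3 knockout arrays lay wholly above or wholly below the 3 WT arrays for 5812 genes (31.9%). With each probe set tested alone, 1018 of 34945 passed (2.91%). Of the called genes, 379 have a single probe set, and 20 of the rises and 69 of the falls had at least 2 probe sets that passed in the same direction.

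These counts depended on individual arrays. WT 3 carried the most weight: without it 2 genes passed, while 437 passed without WT 1, 230 without WT 2, 435 without KO 1, 477 without KO 2 and 145 without KO 3. Of the 1037 genes, 345 were called in 0 of these 6 fits and 89 in all but the fit without WT 3. A fit of the 6 GMP arrays alone called 6 genes. Sex, from the labels or from transcripts, left 2 as a term of the fit, and the Actb ratio or the spike level left 0. All 1037 kept their direction in each of these fits.

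**Figure D1:**
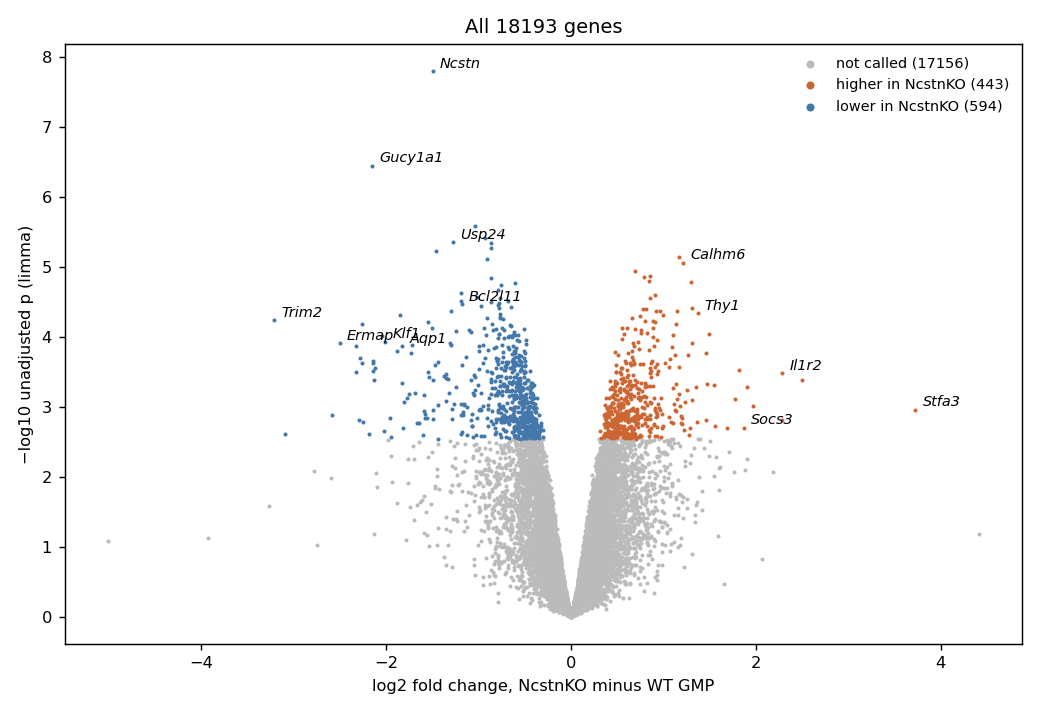
Log2 fold change (horizontal) against −log10 of the unadjusted limma p (vertical) for each of the 18193 genes, orange where higher and blue where lower in NcstnKO GMP at an adjusted p under 0.05. Ncstn, at −1.50, has the smallest p, and Gucy1a1, at −2.15, follows it.

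**Figure D2:**
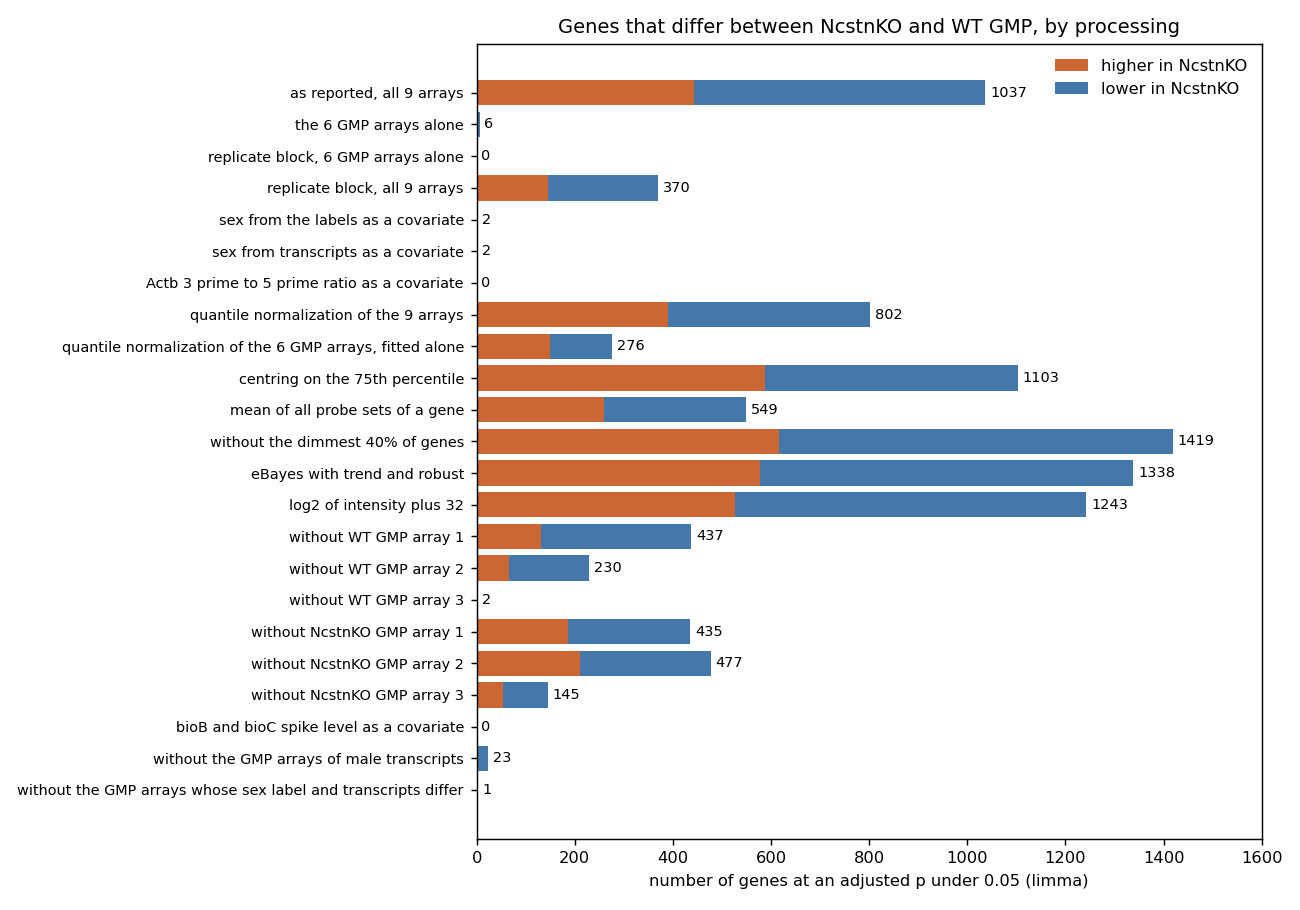
Number of genes at an adjusted p under 0.05 under each processing alternative, orange for higher and blue for lower in NcstnKO GMP. The count is 1037 as reported, 2 without WT GMP 3, and 1419 when the dimmest 40% of genes are left out.

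Besides Ncstn, 1 gene was called in all 6 fits that left out an array and with either sex term. Gucy1a1, the α1 subunit of soluble guanylate cyclase, the nitric oxide receptor that makes cyclic GMP, read 7.95, 8.16 and 7.72 in WT and 5.86, 5.71 and 5.80 in the knockouts. The groups lay 1.86 apart at their nearest arrays, and the difference was −2.15 (SE 0.16, 4.46-fold, adjusted p = 0.00325). Its other 2 probe sets, both dim, differed by −0.13 and −0.18 and did not pass. Gucy1b1, which encodes the partner β1 subunit, was dim at 4.34 to 5.26 on all arrays and differed by −0.34 (adjusted p = 0.312).

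The 6 genes of the fit restricted to GMP arrays were Ncstn, Gucy1a1 and another 4. Usp24, a deubiquitinating enzyme, read 10.46, 10.42 and 10.37 in WT and 9.07, 9.02 and 9.35 in the knockouts. It fell by 1.27 (SE 0.13, 2.41-fold, adjusted p = 0.0135), and all 4 of its probe sets passed downwards when tested alone. Cdc42bpa, the kinase MRCKα that acts on myosin below CDC42, fell from 6.73, 6.76 and 6.80 to 5.78, 5.72 and 5.68, with 2 of 4 probe sets passing. C1qc, a chain of complement C1q made by macrophages, fell from 6.36, 6.62 and 6.18 to 5.00, 4.89 and 4.91. Calhm6, a member of the CALHM channel family, was the lone rise of the 6, from 7.52, 7.43 and 7.44 to 8.57, 8.72 and 8.73 (1.21, SE 0.13, adjusted p = 0.0145). In each of the 6 genes the gap between the groups exceeded the range within either group.

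Genes of the red cell lineage were lower in the knockout GMP, among them genes of the cell membrane and of transcription. Of 22 measured red cell membrane genes 0 rose and 9 fell, with a median difference of −1.27. Over all genes 3.26% were called lower. Of 17 erythroid transcription factors 0 rose and 5 fell (median −0.51), and of 20 genes of early megakaryocyte-erythroid progenitors 0 rose and 5 fell (median −0.31). These lists were chosen with results of these arrays known and are not independent evidence of their direction. The arrays measure a bulk sample, in which fewer cells of a type and less RNA per cell cannot be told apart.

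Among the regulators, Klf1, the zinc finger factor that drives erythroid genes, read 10.78, 9.63 and 10.45 in WT and 8.31, 7.98 and 8.54 in the knockouts. The lowest WT array, WT 2, still lay 1.09 above the highest knockout array. Klf1 fell by 2.01 (SE 0.30, 4.03-fold, adjusted p = 0.0208). Gfi1b, a repressor needed for red cells and megakaryocytes, fell from 9.34, 8.72 and 9.14 to 7.84, 7.51 and 7.95 (−1.30, SE 0.17, adjusted p = 0.0191). Both calls were lost only without WT 3. The corepressor Cbfa2t3 fell by 0.79, the globin switching factor Bcl11a by 0.63 and the stress-response factor Foxo3 by 0.41. Gata1, the central erythroid factor, read 10.89, 9.85 and 10.20 against 9.82, 9.57 and 9.85, without overlap but not past the test (−0.57, adjusted p = 0.18). Its cofactor Zfpm1 differed by −1.15 (adjusted p = 0.07), and Tal1 by −0.35 (adjusted p = 0.273).

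The promoters of several of these genes are shown because these genes fell together and belong to 1 lineage. Each sequence is the 250 bases before the RefSeq start site (GRCm38.p6), read 5′ to 3′ along the gene's strand. Capitals mark the letters GATAA, the core bound by GATA factors, and CCNCNCCC, a CACCC-type box of the kind KLF factors bind, each sought on both strands; overlapping CACCC matches are joined.

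Klf1, chr8:84901732-84901981, plus strand: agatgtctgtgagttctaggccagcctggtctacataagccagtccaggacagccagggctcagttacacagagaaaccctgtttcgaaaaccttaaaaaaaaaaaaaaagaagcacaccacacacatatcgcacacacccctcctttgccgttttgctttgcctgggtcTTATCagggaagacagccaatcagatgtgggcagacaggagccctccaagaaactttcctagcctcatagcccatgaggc

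Ermap, chr4:119189996-119190245, minus strand: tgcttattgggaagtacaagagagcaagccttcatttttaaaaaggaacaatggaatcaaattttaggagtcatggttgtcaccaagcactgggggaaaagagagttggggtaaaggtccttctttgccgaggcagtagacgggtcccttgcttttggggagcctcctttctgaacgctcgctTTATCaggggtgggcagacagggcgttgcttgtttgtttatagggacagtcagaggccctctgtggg

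Rhd, chr4:134864286-134864535, plus strand: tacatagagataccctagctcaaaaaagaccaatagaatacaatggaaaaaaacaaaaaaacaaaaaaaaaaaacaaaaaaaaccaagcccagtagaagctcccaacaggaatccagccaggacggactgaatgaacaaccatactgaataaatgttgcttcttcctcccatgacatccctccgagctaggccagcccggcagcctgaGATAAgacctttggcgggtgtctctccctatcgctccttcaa

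Kel, chr6:41704326-41704575, minus strand: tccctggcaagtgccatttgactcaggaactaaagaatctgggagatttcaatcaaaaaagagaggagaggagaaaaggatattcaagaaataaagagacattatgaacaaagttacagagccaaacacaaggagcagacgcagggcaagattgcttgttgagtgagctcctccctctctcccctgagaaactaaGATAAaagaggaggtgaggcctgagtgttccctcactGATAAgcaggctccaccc

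Epor, chr9:21963577-21963826, minus strand: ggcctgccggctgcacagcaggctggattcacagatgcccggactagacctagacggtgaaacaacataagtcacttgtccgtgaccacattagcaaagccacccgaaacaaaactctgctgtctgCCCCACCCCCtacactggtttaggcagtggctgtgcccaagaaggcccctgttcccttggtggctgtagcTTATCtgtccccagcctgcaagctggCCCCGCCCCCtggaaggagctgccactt

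Aqp1, chr6:55336049-55336298, plus strand: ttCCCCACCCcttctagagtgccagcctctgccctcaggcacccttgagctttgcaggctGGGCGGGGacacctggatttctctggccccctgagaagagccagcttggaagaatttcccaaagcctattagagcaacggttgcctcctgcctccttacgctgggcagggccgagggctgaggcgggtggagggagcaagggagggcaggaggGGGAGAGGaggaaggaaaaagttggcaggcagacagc

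The Klf1, Ermap and Rhd windows each hold 1 GATAA match and 0 of the CACCC type, at bases 80 to 76, 67 to 63 and 42 to 38 before the start. Kel holds 2 GATAA matches, Epor 1 with 4 CACCC matches that lie in separate overlapping pairs, and Aqp1 0 GATAA and 3 CACCC matches. The regulator, heme, membrane and early progenitor lists hold 20 genes that fell, of which 13 matched a RefSeq promoter entry, in 14 windows. The other 7 are Ank1, Dmtn, Cldn13, Slc14a1, Car1, Car2 and Samd14. GATAA occurred in 9 of the 14 windows (64.3%) and in 22.6% of all 32851 mouse windows of this length. The CACCC-type box occurred in 8 (57.1%) and in 45.9% of all windows. A match describes the letters and says nothing of binding in these cells.

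The largest falls in these lists were in membrane genes, Ermap (−2.50) and Dmtn (−2.29). Ermap, an erythroblast membrane protein that carries a blood group in humans, read 11.80, 10.24 and 11.30 in WT and 8.36, 8.27 and 9.21 in the knockouts. Rhd, the Rhesus protein, read 10.89, 9.36 and 10.37 against 7.68, 8.07 and 9.001 (−1.95, SE 0.43, adjusted p = 0.0389). Aqp1, the water channel, read 11.68, 10.42 and 11.17 against 9.05, 9.21 and 9.55 (−1.82, SE 0.28, adjusted p = 0.021). In all 3 genes WT 2 was the lowest WT array, and the groups did not overlap. Kel, the Kell blood group protease, fell from 8.90, 7.65 and 8.31 to 6.55, 6.40 and 7.14, a difference of −1.59 (SE 0.31). Ank1, the ankyrin that ties the membrane to spectrin, fell by 1.57 with 2 of 4 probe sets passing, and the claudin Cldn13 fell by 1.82. Slc14a1, the urea transporter, had another pattern: WT arrays at 11.61, 11.44 and 11.63 stood close together, and the knockouts read 10.61, 9.88 and 9.69. Its difference was −1.50 (SE 0.21, adjusted p = 0.0193), and that of its second probe set −1.51 (adjusted p = 0.0565 over probe sets). Dmtn, which binds actin at the membrane, fell by 2.29 on 1 probe set and differed by 0.19 and −0.01 on its other 2. The ADP-ribosyltransferase Art4 fell by 0.76. The anion exchanger Slc4a1 (−1.67) and the spectrin partner Epb42 (−1.95, at least 2.08-fold) did not pass, at adjusted p of 0.142 and 0.0653.

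Early lineage enzymes and receptors fell too. Car1 and Car2, carbonic anhydrases, read 12.71, 12.05 and 12.86 and 13.48, 12.94 and 13.41 on WT arrays. On knockout arrays Car1 read 10.75, 10.69 and 11.60, and Car2 11.998, 11.76 and 12.36. Car2 fell by 1.24 (SE 0.18, adjusted p = 0.0193) and Car1 fell by 1.53 (SE 0.27, adjusted p = 0.026). Epor, the erythropoietin receptor, fell from 8.54, 7.18 and 8.04 to 6.29, 6.18 and 6.82 (−1.49, SE 0.33, adjusted p = 0.0389). The carboxylesterase Ces2g fell by 2.13, and Samd14, which modulates KIT signalling, by 0.96. The red cell pyruvate kinase gene Pklr, among the 25 largest falls, read 11.28, 10.41 and 11.05 against 7.98, 8.87 and 9.48 (−2.14, SE 0.35, adjusted p = 0.023).

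The heme and iron lists each gave 1 rise and 1 fall, and the globins gave no call, beside the 5.7% called among all genes. Of 19 measured heme genes 1 rose and 1 fell (median −0.13). Tspo2, the erythroid member of the translocator family, fell by 1.59 (SE 0.33), and Blvra, the biliverdin reductase that acts after heme breakdown, rose by 0.51 (SE 0.11). Alas2, the erythroid enzyme that starts heme synthesis, read 6.90, 5.73 and 7.19 against 5.83, 5.44 and 5.92 (adjusted p = 0.27). Of 14 listed globin and related genes, 9 had a probe set with exactly 1 gene symbol, and 0 of these passed. Probe sets shared by several genes were not read, so the globins were measured only in part. Hba-a1, adult α-globin, lay below the background limit on all 6 arrays, at 3.18 to 3.86 on its single such probe set. Among 15 iron genes, the hepcidin regulator Hfe rose by 0.68 and the iron sensor Ireb2 fell by 0.41. The transferrin receptor Tfrc stayed within 12.39 to 12.64 on all 6 arrays (−0.05, adjusted p = 0.781).

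The number of red cell membrane genes called lower was 3, 8 and 0 without WT 1, 2 and 3, and 4, 3 and 5 without KO 1, 2 and 3. For the erythroid transcription factors it was 4, 2 and 0, and 3, 2 and 2. Neither list had a called gene in the fit of the 6 GMP arrays alone or with a sex term, while the membrane genes' median ran from −1.53 to −0.82 over all alternatives. The early progenitor list had 1, 4 and 0 genes called lower without WT 1, 2 and 3, and 1, 1 and 3 without KO 1, 2 and 3. Its median was −0.08 with sex from the labels as a term and 0.04 without the arrays whose sex label and transcripts differ, a setting chosen after seeing the data. The mean level of the red cell membrane genes was 9.10, 8.19 and 8.86 on WT 1, 2 and 3. On KO 1, 2 and 3 it was 7.54, 7.39 and 7.90. Stromal markers varied over the same arrays. Col1a1, type I collagen, read 8.92, 4.87 and 8.74 on WT arrays and 3.92, 4.58 and 4.23 on knockout arrays, high on WT 1 and 3 and low elsewhere. Of the 19 stromal and endothelial markers 0 passed. Their mean was 5.39 to 5.91 on WT arrays and 5.02 to 5.58 on knockout arrays, 2 were at background on all 6 arrays, and their part in the red cell result was not tested.

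**Figure D3:**
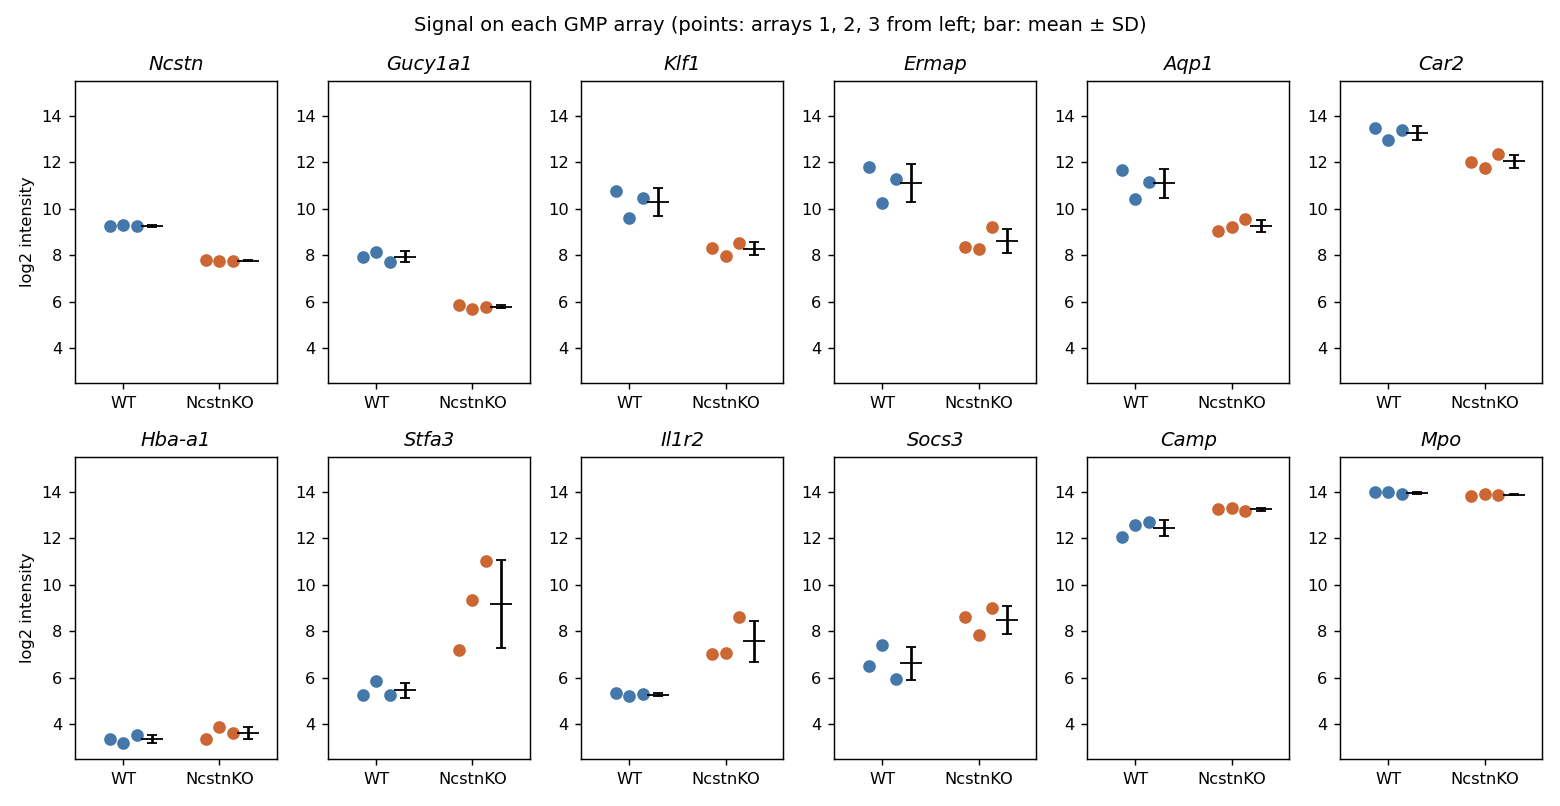
Log2 intensity of 12 genes on each array, WT in blue and NcstnKO in orange, with the mean ± SD (n = 3) beside the points. Ncstn, Gucy1a1, Klf1, Ermap, Aqp1 and Car2 are lower and Stfa3, Il1r2, Socs3 and Camp higher on every knockout array, while Hba-a1 overlaps and Mpo differs by −0.09.

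Some megakaryocyte and platelet genes fell. Of 23 measured members 0 rose and 7 fell (median −0.53), beside 3.26% of all genes called lower. Vwf, the von Willebrand factor, read 8.90, 8.18 and 8.11 in WT and 7.41, 7.40 and 7.27 in the knockouts (−1.04, SE 0.20, adjusted p = 0.0282). Rab27b, which directs platelet granule secretion, fell from 9.53, 9.49 and 9.74 to 9.04, 8.59 and 8.66 (−0.82, SE 0.15, adjusted p = 0.0271). Thbs1, thrombospondin, fell by 1.49 (SE 0.31) to a level at background on 2 knockout arrays. Both thrombin receptor genes on the list, F2r (−0.64) and F2rl2 (−1.44), fell, as did the platelet tubulin Tubb1 (−0.81) and Plek (−0.59), the kinase substrate pleckstrin. Other defining genes were not past the test: Pf4 differed by −0.29 (adjusted p = 0.449), Gp1bb by −0.19 (adjusted p = 0.5) and Itga2b by 0.29 (adjusted p = 0.269). Without KO 3 or WT 2 or 3, 0 of the 7 were called, and 2, 5 and 1 genes were called without WT 1, KO 1 and KO 2. With sex from the labels as a term the list's median was −0.09.

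Later neutrophil genes had higher means in the knockouts. All 24 measured genes of secondary and tertiary granules had a higher mean in the knockouts, with a median difference of 0.51, but 1 passed the test, and the knockout arrays lay above all WT arrays for 12. Over all 18193 genes 10921 differences were positive, and 18.5% of genes had every knockout array above every WT array. That 1 was Camp, the cathelicidin of secondary granules, at 12.05, 12.54 and 12.71 in WT and 13.23, 13.30 and 13.19 in the knockouts (0.81, SE 0.18, adjusted p = 0.0389). Ltf, lactoferrin, read 9.57, 10.69 and 10.88 against 11.06, 11.29 and 10.81, and these ranges overlap. Lcn2, Ngp and Mmp8 overlapped as well, with differences of 0.60, 0.32 and 0.41. Cd177, a neutrophil surface antigen, read 7.23, 8.19 and 8.41 against 8.68, 9.09 and 9.10 (1.01, adjusted p = 0.163), and the chitinase-like Chil3 differed by 0.70 (adjusted p = 0.0772). WT 1 was the lowest WT array for Camp, Ltf, Lcn2, Ngp, Mmp8 and Cd177, and the list's mean was 9.53, 9.86 and 9.94 on WT arrays and 10.10, 10.52 and 10.51 on knockout arrays. The list's median was positive in every alternative, from 0.11 to 0.95, but Camp was called in 0 of the 6 fits without 1 array.

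Primary granules are made earlier, at the GMP and promyelocyte stages. Of 15 primary granule genes 0 passed, the median was −0.01, and the list's mean stayed within 12.69 to 12.82 on all 6 arrays. Of 9 NADPH oxidase genes 1 rose: Cyba, the membrane subunit p22phox, from 11.77, 11.87 and 11.89 to 12.33, 12.37 and 12.45 (0.54, SE 0.11, adjusted p = 0.0347). Its partner Cybb differed by 0.48 (adjusted p = 0.358).

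The largest rise that passed the test was that of a stefin gene. Of 7 measured stefins and cystatins, cysteine protease inhibitors, 2 rose, beside 2.44% of all genes called higher. Stfa3 read 5.25, 5.84 and 5.26 in WT and 7.20, 9.32 and 11.001 in the knockouts, so the knockout arrays differed among themselves by more than the WT arrays did. Stfa2l1 read 7.78, 8.20 and 7.54 against 8.97, 10.06 and 11.33, in the same order of knockout arrays. Stefin A genes are near-identical copies whose probe sets can share signal, so the pair may not be separate measurements. Cstb, stefin B, differed by 0.25 (adjusted p = 0.102), and Cst3, cystatin C, by −0.05. Both stefins were called without KO 1, and neither without KO 2, without KO 3 or without any 1 WT array.

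Of 21 genes of the CEACAM, WFDC and myeloid lectin list 3 rose, beside 2.44% of all genes, and the median was 0.66. Wfdc17, a whey acidic protein family member, read 7.51, 8.13 and 7.10 in WT and 9.76, 8.95 and 9.76 in the knockouts (1.91, SE 0.35, adjusted p = 0.0275). Ceacam10 rose from 6.89, 6.90 and 6.21 to 7.80, 8.51 and 9.04, and the protease Asprv1 from 4.57, 5.43 and 5.70 to 6.54, 7.25 and 7.80. Saa3, an acute-phase apolipoprotein made by myeloid cells, rose from 7.10, 6.39 and 6.55 to 7.63, 8.21 and 8.82 (1.55, SE 0.28, adjusted p = 0.0273). Of 15 Schlafen and IFITM genes, Slfn4 and Ifitm6 rose. Slfn4 read 9.07, 8.51 and 8.74 against 9.83, 10.26 and 11.29, and Ifitm6 read 8.97, 9.95 and 9.73 against 10.61, 11.07 and 11.63. KO 3 was the highest array for Stfa3, Stfa2l1, Ceacam10, Asprv1, Saa3, Slfn4 and Ifitm6. The count of the CEACAM list was 0 without WT 1, WT 3 or KO 3, 1 without WT 2, and 2 without KO 1 or KO 2.

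**Figure D4:**
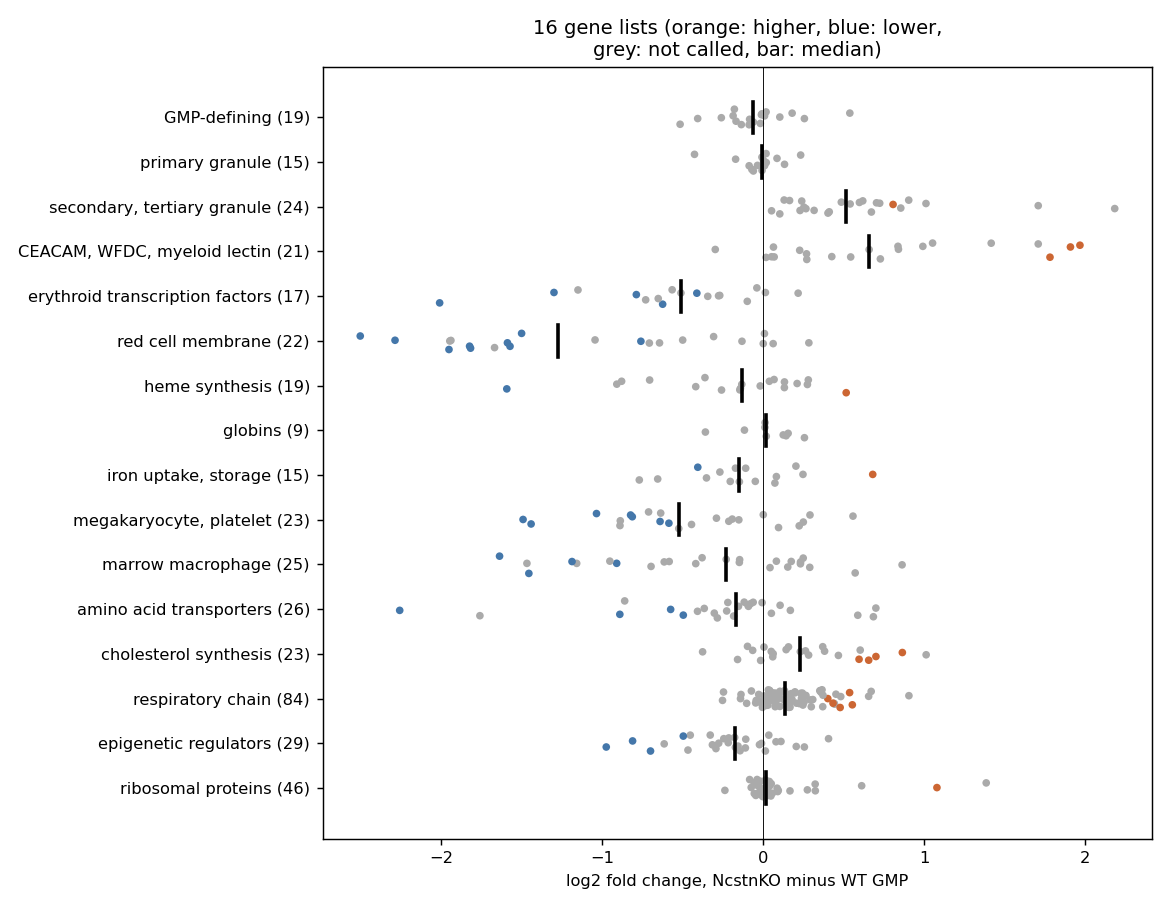
Log2 fold change of every measured member of 16 lists (number in brackets), with the list median as a bar and called genes in colour. Red cell membrane genes have a median of −1.27 and secondary granule genes of 0.51, while GMP-defining and primary granule genes centre near 0.

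**Figure D5:**
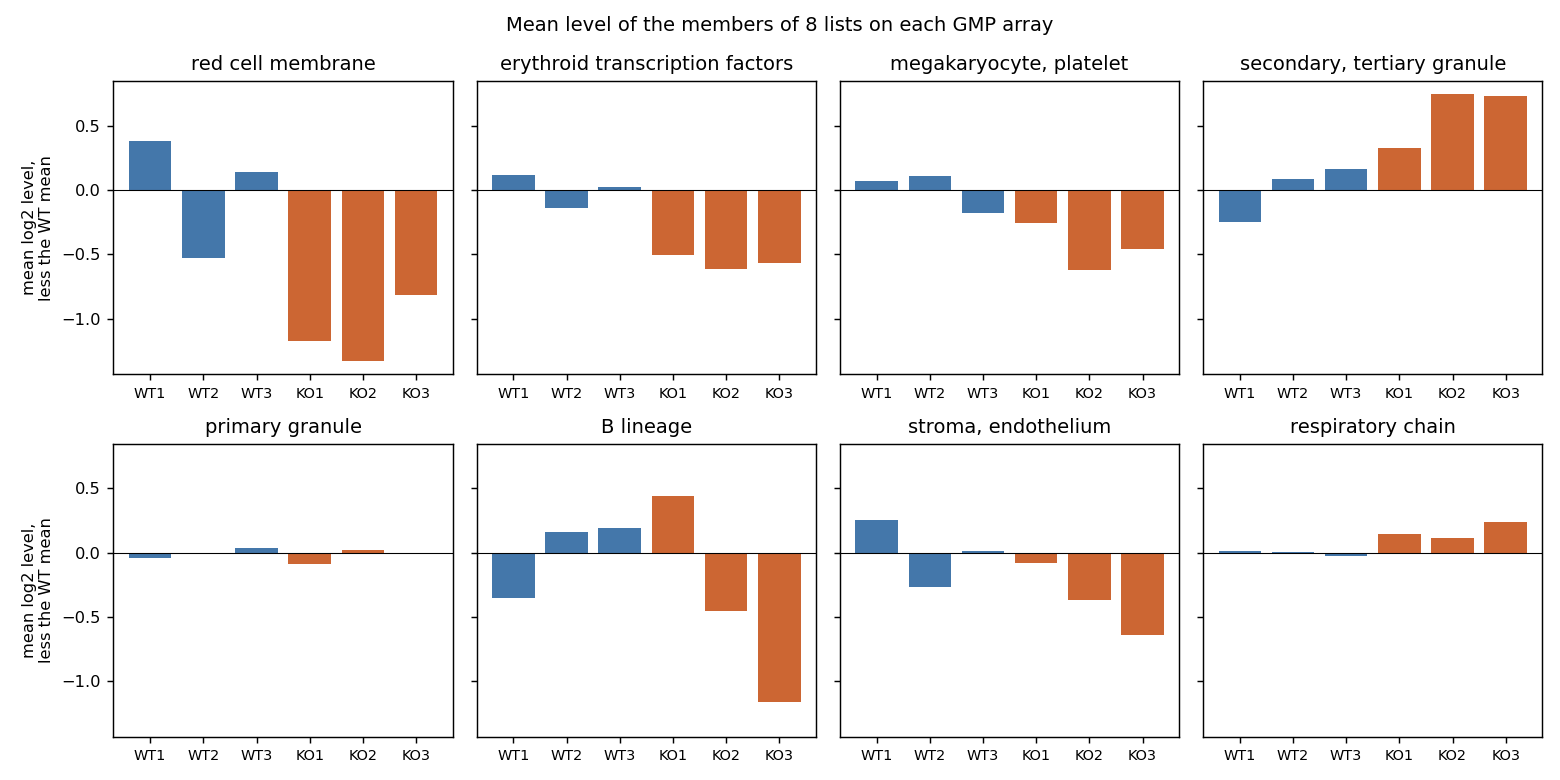
Mean log2 level of the members of 8 lists on each array, less the mean of the 3 WT arrays. Red cell membrane genes run from 8.19 to 9.10 on WT arrays and 7.39 to 7.90 on knockout arrays, and the primary granule mean stays within 12.69 to 12.82.

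The chains of complement C1q led the falls among macrophage genes. Of 25 marrow macrophage genes 0 rose and 4 fell (median −0.23), beside 3.26% of all genes called lower. Of their differences 10 were positive, up to 0.86, and 15 negative. The C1q chains fell together: C1qa had a difference of −0.91 (SE 0.16), C1qb of −1.64 (SE 0.37) and C1qc of −1.46 (SE 0.15). C1qb read 7.93, 7.71 and 8.01 in WT and 5.30, 6.66 and 6.78 in the knockouts. Axl, a receptor for apoptotic cells, fell from 6.42, 5.85 and 6.40 to 4.64, 4.91 and 5.55 (−1.19, SE 0.24, adjusted p = 0.0337). Adgre1, the F4/80 antigen, read 7.35, 8.06 and 8.17 against 6.68, 7.05 and 6.37 and did not pass (adjusted p = 0.0809). Vcam1 overlapped, and Cd5l lay below the background limit on all 6 arrays. The count of the list was 1, 3 and 0 without WT 1, 2 and 3, and 2 without each knockout array. Over the 25 genes the mean was 7.04 to 7.13 on WT arrays and 6.65 to 6.80 on knockout arrays.

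Markers of other cell types the gate could hold mostly did not pass, beside the 5.7% called among all genes. A count of 0 in a short list does not show that its genes were unchanged. Of 21 monocyte genes 1 fell, Emb, which encodes embigin, by 0.41, while 12 differences were positive and 9 negative (median 0.14). Of 16 dendritic, 18 mast, basophil and eosinophil, and 18 B lineage genes 0 passed, with medians of 0.44, −0.21 and −0.33. B lineage signal differed between single arrays: the list's mean was 7.50 to 8.04 on WT arrays and 8.29, 7.40 and 6.69 on KO 1, 2 and 3. Ebf1, the B cell specification factor, read 9.31, 7.31 and 5.29 on those knockout arrays and 7.77 to 8.42 in WT. Of 19 T and NK genes Thy1 rose and Prf1, perforin, fell by 0.66. Thy1 read 5.91, 5.60 and 5.85 in WT and 7.33, 6.79 and 7.36 in the knockouts (1.37, SE 0.18, adjusted p = 0.0193), while Cd3e, which T cells need, differed by −0.16 (adjusted p = 0.743). Of 23 stem and multipotent progenitor genes 2 fell, Gfi1b, described above, and Txnip, a regulator of redox state and glucose uptake, by 0.51.

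Receptor and signalling genes gave calls in both directions. Of 31 cytokine receptors 3 rose and 1 fell (12.9%), beside 5.7% of all genes called in either direction, with a median of −0.07. Il15ra rose from 8.44, 8.54 and 8.02 to 8.93, 9.11 and 9.42 and Il21r from 8.28, 8.41 and 8.61 to 8.89, 8.85 and 9.07, beside Il1r2, while Epor fell. The GMP growth factor receptors Csf3r and Csf2ra differed by −0.17 and −0.18, neither past the test.

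Of 30 JAK-STAT and SOCS genes 1 rose and 4 fell (16.7%, median −0.11), beside 5.7% of all genes called in either direction. Socs3, the feedback inhibitor of G-CSF and interleukin-6 receptors, read 6.50, 7.38 and 5.94 in WT and 8.62, 7.82 and 8.98 in the knockouts. It rose by 1.87 (SE 0.43, adjusted p = 0.0428), with WT 2 and KO 2 the nearest arrays, 0.44 apart. Its other 2 probe sets differed by 1.40 and 0.95 and did not pass. The Socs3 promoter is shown because the gene is known to be induced through STAT sites close to its start. It is the same kind of RefSeq window (GRCm38.p6), with 1 match to TTCNNNGAA, the STAT palindrome, in capitals.

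Socs3, chr11:117969367-117969616, minus strand: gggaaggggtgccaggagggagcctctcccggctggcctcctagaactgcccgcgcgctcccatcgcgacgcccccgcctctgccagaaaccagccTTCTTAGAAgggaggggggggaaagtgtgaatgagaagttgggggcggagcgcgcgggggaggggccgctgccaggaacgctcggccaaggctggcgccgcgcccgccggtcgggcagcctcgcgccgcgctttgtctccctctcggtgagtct

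The match spans bases 154 to 146 before the start, and TTCNNNGAA occurred in 7.02% of all windows. Stat3 read 9.77 to 9.86 in WT and 9.90 to 9.93 in the knockouts and did not pass (0.11, adjusted p = 0.473). The 4 that fell were the kinase Jak1 (−0.56, SE 0.10), the factor Stat5b (−0.50, SE 0.11), Socs4 (−0.53) and Socs6 (−0.85). The other Socs4 probe sets differed by −0.03, 0.17 and 0.14 and did not pass. Jak1 read 10.65, 10.85 and 10.81 against 10.13, 10.33 and 10.19. Stat5a, the close relative of Stat5b, differed by −0.14 (adjusted p = 0.455).

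Of 26 genes that restrain or relay RAS and ERK signals 0 rose and 3 fell, beside 3.26% of all genes called lower. Their differences were 15 positive and 11 negative (median 0.09). Cblb, a ubiquitin ligase that downregulates receptors, fell from 10.76, 10.70 and 10.56 to 10.15, 10.22 and 10.05 (−0.53, SE 0.10, adjusted p = 0.0282). Spred2 fell by 0.42, and Ptpn11, the phosphatase SHP2, which relays RAS signals, by 0.41. In the innate lists, the single-stranded RNA sensor Tlr7 rose by 0.69 and the kinase Irak2 fell by 0.43 among 20 Toll-like receptor genes. The other Tlr7 probe sets differed by 0.38 and 0.33 and did not pass. Of 29 NF-κB and inflammatory genes 0 passed. Of 33 interferon-stimulated genes 3 rose and 1 fell (12.1%, median 0.10), beside 5.7% of all genes called in either direction. Oas1a, the 2′-5′ oligoadenylate synthetase, rose from 8.77, 8.63 and 8.78 to 9.28, 9.33 and 9.62, while Usp18, which restrains interferon signalling, fell from 7.93, 7.29 and 7.78 to 6.63, 6.14 and 6.18. Ifi35 and Parp9 rose by 0.38 and 0.40.

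Lipid genes gave calls in both directions. Of 23 cholesterol synthesis genes 4 rose and 0 fell (median 0.23), beside 2.44% of all genes called higher. Msmo1, a sterol methyl oxidase, rose from 8.70, 8.81 and 9.04 to 9.69, 9.47 and 9.98 (0.86, SE 0.15, adjusted p = 0.026), and the demethylase Cyp51 by 0.70 (SE 0.16). Pmvk, phosphomevalonate kinase, rose by 0.59, and Ggps1, which makes geranylgeranyl chains, by 0.65 with 2 of 4 probe sets passing. Sqle, the squalene epoxidase, differed by 0.05 (adjusted p = 0.897). Of 32 fatty acid genes 1 rose and 3 fell (12.5%, median −0.12), beside 5.7% of all genes called in either direction. Scd1, the desaturase that makes monounsaturated fatty acids, read 8.73, 8.16 and 8.70 against 6.94, 5.74 and 6.12, with no overlap. Acsl6, an acyl-CoA synthetase, fell from 7.18, 5.38 and 6.53 to background on all 3 knockout arrays, at least 3.83-fold. The acetyl-CoA synthetase Acss1 fell by 0.61, and Dgat1, which completes triglyceride synthesis, rose by 0.82.

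Among transporters, 4 members of the amino acid transporter list and 4 of the ABC family fell. Of the 26 genes on the amino acid transporter list 0 rose and 4 fell (median −0.17), beside 3.26% of all genes called lower. Slc38a5, a glutamine carrier, read 8.95, 7.27 and 8.23 against 5.73, 5.68 and 6.27 (−2.26, SE 0.38, adjusted p = 0.023). Slc43a1, a carrier of large neutral amino acids, fell by 0.89, its relative Slc43a3 by 0.50 and the aromatic amino acid carrier Slc16a10 by 0.58. Of 45 ABC transporters 0 rose and 4 fell, and 24 differences were positive and 21 negative (median 0.02). Abca1 and Abcg1, which export cholesterol, fell by 0.98 and 0.75, the phospholipid translocator Abcb4 fell by 1.49 and Abca3 by 0.78. Abca1 read 6.97, 7.23 and 7.12 in WT and 6.30, 5.61 and 6.49 in the knockouts. Both lists had 0 called genes without WT 3 or KO 3, and the amino acid transporters also without KO 1 or KO 2.

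Of 84 respiratory chain genes 5 rose and 0 fell; 71 had a positive difference, and the knockout arrays lay above all WT arrays for 45. Beside these stand 2.44% of all 18193 genes called higher, 10921 positive differences and the 18.5% with knockout arrays above all WT arrays. The median was small, at 0.14. Uqcr11, a subunit of complex III, read 11.99, 11.90 and 11.82 against 12.41, 12.24 and 12.49 (0.48, SE 0.09, adjusted p = 0.0308). Uqcc2 and Uqcc3, assembly factors of the same complex, rose by 0.55 and 0.43, and Ndufa2 and Ndufa7, of complex I, by 0.40 and 0.54. The count was 1 without WT 1, 6 without KO 2 and 0 without any 1 of the other 4 arrays. Of 46 cytosolic ribosomal protein genes 1 rose, Rps25, by 1.08 on its single probe set (median 0.02). The hypoxia-responsive Bnip3 and Ankrd37 rose by 0.72 and 0.65, and Psph, the last enzyme of serine synthesis, by 0.54.

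Among chromatin regulators mutated in myeloid leukemia, Tet1, Kmt2a, Crebbp and Nsd1 fell. Of 29 measured, 0 rose and 4 fell (median −0.18), beside 3.26% of all genes called lower. The knockout arrays lay below all WT arrays for 14, beside 13.4% of all genes. Tet1, which oxidizes methylcytosine, read 9.23, 9.49 and 9.41 against 8.22, 8.55 and 8.44 (−0.98, SE 0.13, adjusted p = 0.0191), with 3 of 4 probe sets passing. Kmt2a, the MLL histone methyltransferase, fell from 10.94, 11.35 and 11.40 to 10.43, 10.46 and 10.37 (−0.81, SE 0.14). The acetyltransferase Crebbp fell by 0.70, with 2 of 4 probe sets passing, and the H3K36 methyltransferase Nsd1 by 0.50. Tet2 and Dnmt3a overlapped between the groups, at differences of 0.20 and 0.11. The count was 3, 1 and 0 without WT 1, 2 and 3, and 2, 5 and 1 without KO 1, 2 and 3.

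Survival and cycle genes gave isolated calls. Bcl2l11, which encodes the proapoptotic BIM, fell from 10.42, 10.65 and 11.01 to 9.32, 9.62 and 9.60 (−1.18, SE 0.15, 2.27-fold, adjusted p = 0.0191), with 2 of 5 probe sets passing and the call lost only without WT 3. Casp9, the initiator caspase of the mitochondrial pathway, fell by 0.55 (SE 0.12), Bcl2 differed by −0.54 (adjusted p = 0.0516) and Mcl1 by 0.06. The other Casp9 probe sets each differed by 0.13 and did not pass. Of 23 cyclins and inhibitors Cdk6 fell by 0.48 and Cdkn2d, which encodes a CDK4/6 inhibitor, rose by 0.47. Of 28 DNA replication genes 0 passed, and of 32 mitotic genes 1 fell, Prc1, by 0.42; Mki67 differed by −0.36 (adjusted p = 0.052). Of 28 autophagy genes 1 rose and 4 fell, beside 2.44% of all genes called higher and 3.26% called lower. Of their differences 16 were positive and 12 negative (median 0.08). The mitophagy receptor Bnip3 rose by 0.72. The initiating kinases Ulk1 and Ulk2 fell by 0.52 and 0.42, the receptor Nbr1 by 0.48 and Wipi2 by 0.41. Other probe sets of Ulk1 (0.03), Nbr1 (−0.04) and Wipi2 (0.04 and 0.22) did not pass. Ulk1 read 9.16, 9.07 and 8.97 against 8.46, 8.64 and 8.52.

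Adhesion and cytoskeletal genes included Itga4, the α4 integrin that binds VCAM1, which fell from 11.94, 12.04 and 12.17 to 11.36, 11.53 and 11.41 (−0.62, SE 0.09, adjusted p = 0.0193). Itga5, the fibronectin receptor chain, fell by 0.54. Itgae, the αE chain that binds E-cadherin, rose from 5.41, 5.14 and 5.80 to 6.70, 6.53 and 7.20, with both probe sets passing. Myh10, nonmuscle myosin IIB, read 9.79, 8.02 and 9.26 against 6.21, 6.90 and 6.98 (−2.33, SE 0.40, adjusted p = 0.0243), Tln1, talin, fell by 0.51 and Myl10, a myosin light chain, rose by 1.10. The aspartic protease Ctse fell by 0.61. Tln1 and Ctse changed sign when all their probe sets were averaged.

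Of 58 TRIM genes 0 rose and 6 fell (10.3%), beside 3.26% of all genes called lower. The family as a whole was balanced, with 30 positive and 28 negative differences (median 0.01). Trim2 read 8.06, 6.50 and 7.37 in WT and 3.40, 4.84 and 4.05 in the knockouts, and 1 of its 6 probe sets passed. The others were Trim56 (−0.77), Trim32 (−0.61), Trim33 (−0.56), Trim14 (−0.43) and Trim35 (−0.37).

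Several further large changes lie outside these groups. Cd86, the costimulatory ligand for CD28, rose from 4.68, 4.86 and 5.68 to 6.47, 6.64 and 6.54 (1.48, SE 0.27, adjusted p = 0.0272). The histone H3 gene H3c4 rose by 1.30 (SE 0.15) and the ryanodine receptor Ryr1, a calcium release channel, by 1.26 (SE 0.20). A second, dimmer Ryr1 probe set differed by −0.55 and did not pass. Clu, clusterin, rose by 1.36 (adjusted p = 0.0399) on the brightest of its 4 probe sets, and in the fit over single probe sets 0 of the 4 passed. Rapgef3, the cyclic AMP-activated exchange factor EPAC1, rose from 8.87, 8.51 and 8.52 to 9.42, 10.03 and 9.64, with 4 of 5 probe sets passing. The proton pump subunit Atp6v0b and the NF-κB regulator Commd5 rose by 0.89 and 0.88, each with 3 of 3 probe sets passing.

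Among the falls, Igsf3, an immunoglobulin superfamily membrane protein, read 8.18, 7.06 and 7.44 against 5.24, 6.07 and 5.24, with 3 of 3 probe sets passing. Septin8, a cytoskeletal GTPase, fell from 10.13, 9.13 and 9.89 to 7.70, 7.68 and 8.20 (−1.85, SE 0.25, adjusted p = 0.0193). Slc26a1, a sulfate transporter, fell at least 4.67-fold with both probe sets passing. Sphk1, which makes sphingosine 1-phosphate, read 9.24, 7.10 and 7.86 against 5.51, 6.17 and 6.45 (−2.03, SE 0.47, adjusted p = 0.0456). Lmna, the gene of lamins A and C, fell by 1.56 with 2 of 5 probe sets passing, and Hpgd, which inactivates prostaglandins, fell by 1.58 with both passing. In Septin8, Sphk1 and Lmna, WT 1 was the highest and WT 2 the lowest WT array, the order that Ermap, Klf1 and Rhd show.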

How the data were processed

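RNA of sorted GMP was hybridized to Affymetrix mouse arrays, with 5 ng of total RNA amplified per array, per the labels' protocols. The authors deposited 1 linear intensity for each probe set. The submitters' processing notes name RMA, without a version. Whether LSK and GMP arrays shared 1 normalization is not given in the sources used here. The log2 of the deposited intensities was taken. Arrays have no sequencing depth; their number limits the precision.

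Of 45101 probe sets, 34945 had exactly 1 gene symbol in the array annotation, 932 several, 9160 none, and 64 were controls. A gene was read from its brightest such probe set (mean over the 9 arrays), giving 18193 genes, of which 18031 matched RefSeq (GRCm38.p6) by Entrez identifier. Group means of all 9 arrays were fitted with limma 3.58.1 in R 4.3.3 (lmFit, eBayes, 2-sided, 6 residual degrees of freedom). A call needed a Benjamini-Hochberg adjusted p under 0.05 over all genes, and every adjusted p comes from limma. The background limit is the 95th percentile of 27 bacterial control probe sets on each array; folds against a group at background are lower bounds computed with it. The fit was tested on simulated data.

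Named genes are the γ-secretase and sheddase genes, the 25 largest rises and falls without overlap, up to 4 members of each of 55 lists by smallest p, the 10 largest rises and falls with 2 or more passing probe sets, and genes called in stricter fits. The remaining called members of a list and its best-known genes (such as Gata1, Elane, Ltf, Cd3e and Hes1) were named after their values were seen. The members and lists were chosen with earlier results of these data known, and no list was tested as a set. Same-numbered WT and knockout arrays did not deviate together (correlations of −0.092, 0.004 and 0.022), so numbers were not used as pairs. Alternatives left out each array in turn, and changed the normalization, covariates, arrays, filter, probe set rule, variance model and offset.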

Additional observations from a re-analysis of the deposited data

Results flagged for a closer look

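The bioB and bioC spike controls, added to the hybridization mix and carrying no mouse signal, were 0.317 higher (log2) on the knockout arrays, with no overlap between the groups. The bioD and cre spikes differed by −0.0146 (exact 2-sided permutation p = 0.9). In a limma fit over all probe sets, 25 probe sets with several gene symbols and 57 without a symbol also passed an adjusted p under 0.05. They are outside the gene-level comparison because they name no single gene.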

How the results depend on the processing

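The 1037 genes (443 higher, 594 lower) became 6 (1 and 5) in the fit of the GMP arrays alone, 276 (150 and 126) when those were also quantile normalized, and 549 (260 and 289) when a gene's probe sets were averaged. With either sex term 2 passed (0 and 2). The Actb ratio and, chosen after seeing the data, the spike level each left 0, with 1980 and 1964 genes at an unadjusted p under 0.05. Also chosen after seeing the data, leaving out the GMP arrays with male transcripts gave 23 (0 and 23), and leaving out those whose sex label and transcripts differ gave 1 (1 and 0). A replicate block left 370 (146 and 224) over 9 arrays and 0 over 6, with 3964 at an unadjusted p under 0.05; the numbers do not pair the arrays. Without 1 array the counts ran from 2 to 477 (0 to 211 higher, 2 to 306 lower).

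Ncstn stayed lower in every alternative. Its difference was −0.68 (adjusted p = 0.0249) when its probe sets were averaged. It did not pass with the 6-array replicate block (−1.50), the Actb ratio (−1.46), the spike level (−1.37) or without the mismatched arrays (−1.46), at adjusted p of 0.12, 0.0537, 0.152 and 0.153. Ctse became 0.02 and Tln1 0.13 when probe sets were averaged. All 1037 genes kept their sign in every other alternative in which they were tested, and 1024 under that averaging. Quantile normalization of 9 arrays (802), centring on the 75th percentile (1103), a filter on dim genes (1419), eBayes with trend and robust (1338) and an offset of 32 (1243) stayed within 1.5 times the reported count. With 3 arrays a group, spike level and RNA quality move with genotype and cannot be told apart from it. Sex moves with genotype in part and cannot be fully told apart from it. By transcripts WT 1 was female like the knockout arrays, and by labels KO 1 was female like the WT arrays.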
